A study of Mus musculus with 11 samples.

Results

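The comparison described here is the change that repeated CpG treatment made in Ly-6D+ common lymphoid progenitors (CLPs) of mouse bone marrow, followed across 22180 genes. It rests on 5 of the 11 arrays of the study: 3 arrays of Ly-6D+ CLPs from mice given CpG and 2 arrays of Ly-6D+ CLPs from mice given PBS. The other 6 arrays hold Ly-6D- CLPs, 3 after CpG and 3 after PBS, and serve here to estimate the spread between arrays and to test where the 2 populations differed in their change. All mice were C57BL/6. They received 50 µg of CpG1826, a synthetic oligodeoxynucleotide with unmethylated CpG motifs, or PBS, on alternate days, and their CLPs were sorted at day 10 straight into lysis buffer. From each sample 5 ng of RNA was amplified and hybridised to an Affymetrix Mouse Gene 2.0 ST array, so each value is the average of a sorted pool. The labels do not say whether replicates came from separate mice or pools, so p-values measure the spread between these samples, which may be technical.

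CLPs are rare marrow cells that give rise to B, T and natural killer cells. Surface Ly-6D marks those CLPs that have entered the B-cell path, while Ly-6D- CLPs keep broader potential. CpG DNA is sensed by Toll-like receptor 9, an endosomal receptor that signals through MyD88 and drives inflammatory cytokines and interferons. Interferon-gamma in turn acts on many cell types, and its known targets include the MHC class II transactivator, the class II chains, and the immunity-related and guanylate-binding GTPases that attack vacuoles holding pathogens.

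Levels below are RMA values on the log2 scale, and a log2 change is the CpG mean minus the PBS mean, with the standard error (SE) of a limma model over all 11 arrays. Genes with a p below 0.05 after Benjamini-Hochberg adjustment over all 22180 genes are said to have passed. Markers of CLPs were bright. Ranks of brightness, here and below, use the mean over all 11 arrays, Ly-6D- CLPs included. They therefore do not test the Ly-6D+ label. Dntt, the terminal transferase of early lymphocytes, was brighter than 99.8% of genes, Flt3 than 98.6%, the interleukin-7 receptor chain Il7r than 97.7% and Ly6d than 97.5%. Ly6d read 12.55, 12.57 and 12.61 after CpG and 12.56 and 12.59 after PBS. The 5 arrays correlated with each other over genes at 0.990 to 0.993 (Pearson's r), and their medians lay within the 3.85 to 3.96 range of all 11 arrays. CpG replicate 3 stood apart in the genes described below. It was the lowest of the 3 CpG arrays for 32 of the 43 genes that were higher by 2-fold or more (74.4%), against 34.7% of all genes, and its array weight in limma was the lowest of the 5, at 0.694.

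Few genes passed between treated Ly-6D+ CLPs and controls, and 3 of the 6 that did were MHC class II chains. 6 genes passed, 0.0271% of the genes tested, and all 6 rose: the MHC class II chains H2-Aa, H2-Eb1 and H2-Ab1, the interferon-inducible GTPase Gm4951, the membrane-trafficking protein Ehd3 and the mucin Muc13. No gene fell at this threshold by limma. At an unadjusted p below 0.05, 694 genes were higher (3.13%) and 749 lower (3.38%). A second version of the fit, with eBayes told to follow a trend of variance with level and to be robust to outlying genes (the trended fit below), passed 18 genes (0.0812%), 13 higher and 5 lower, the same 6 among them. Of all genes 51.0% were higher and 49.0% lower, and every CpG array was above both PBS arrays in 10.7% and below both in 9.76%. Among probe sets without a single gene symbol 3 passed (0.0168%). The median change of all genes was 0.0032 and the SD over genes was 0.23. The 95% interval of the change lay inside a 2-fold range either way for 21094 genes (95.1%). By size alone, 43 genes were higher and 28 lower by 2-fold or more, and in 37 and 24 of these the CpG and PBS arrays did not overlap. The higher set was mostly of bright genes, 37 of 43 being above the median gene's level of 4.33, against 16 of 28 in the lower set.

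**Figure D1:**
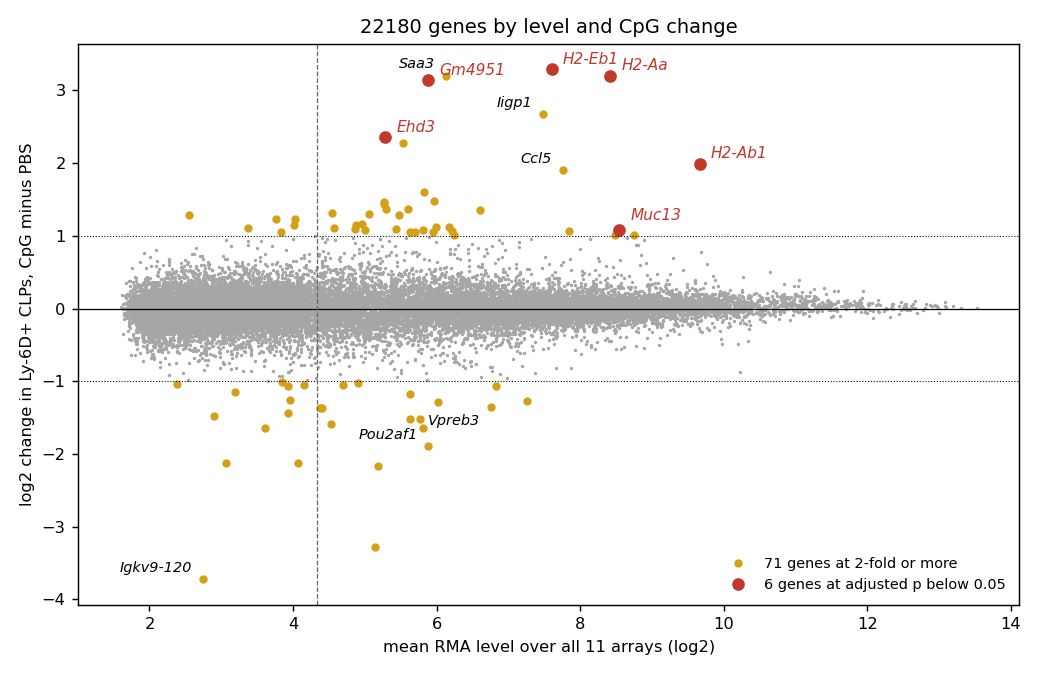
Each point is 1 of 22180 genes, placed by its mean RMA level over all 11 arrays (x axis, log2) and its log2 change in Ly-6D+ CLPs, CpG minus PBS (y axis). Red points passed at adjusted p below 0.05, yellow points are the 71 genes at 2-fold or more in either direction (dotted lines), and the dashed line marks the median gene's level. The 6 genes that passed are all above 0, between 1.08 for Muc13 and 3.29 for H2-Eb1.

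The MHC class II molecule is a pair of chains that shows peptides from endosomes to helper T cells. RNA for chains of both mouse isotypes, I-A and I-E, was higher after CpG. The paired molecules were not measured, and no I-E alpha chain is given here. The I-E values are of beta-chain RNA alone and do not show that I-E molecules were made. H2-Aa, the I-A alpha chain, read 9.83, 10.04 and 9.30 after CpG against 6.61 and 6.44 after PBS. The arrays did not overlap and the lowest CpG array was well above both PBS arrays. The log2 change was 3.20 (SE 0.21, 95% interval 2.74 to 3.67), a 9.2-fold rise with an adjusted p of 0.00038. H2-Eb1, the I-E beta chain, read 9.23, 9.30 and 8.54 against 5.76 and 5.71, a 9.77-fold rise (log2 3.29, SE 0.25, adjusted p 0.000926). H2-Ab1, the I-A beta chain, was already bright in controls, at 8.69 and 8.30, and reached 10.52, 10.80 and 10.14, a 3.99-fold rise (log2 2.0, SE 0.20, adjusted p 0.00563). These 3 genes and Gm4951 passed with any 1 of the 11 arrays left out.

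The transactivator Ciita, which switches class II genes on, read 6.17, 6.19 and 5.74 after CpG against 5.06 and 4.81 after PBS, and H2-Eb2, a further I-E beta gene, read 6.13, 6.56 and 5.91 against 5.17 and 4.89. Neither pair of groups overlapped, but neither gene passed (log2 changes 1.10 and 1.17, adjusted p 0.179 and 0.18). H2-DM exchanges peptides in the class II groove. Its beta chains H2-DMb1 and H2-DMb2 were at 1.10 (SE 0.25) and 0.88 (SE 0.23) on the log2 scale, with no overlap and adjusted p values of 0.283 and 0.417. Its alpha chain H2-DMa, bright in both groups at 10.42, 10.51 and 10.29 against 10.17 and 10.29, was at 0.18 (95% interval -0.06 to 0.41). H2-DO restrains H2-DM, and its chains H2-Oa and H2-Ob were at 0.29 and -0.17. Among the 17 of 18 list members measured, 10 were higher and 7 lower, 3 passed, and the list median was 0.18. The 7 lower genes were H2-Ob and 6 factors that bind class II promoters in most cells, such as Creb1 and the NF-Y subunits Nfya and Nfyb, none below -0.18. The invariant chain Cd74 was not analysed here.

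Class II promoters are known for an X box, bound by the RFX complex, followed by a Y box, bound by NF-Y, and CIITA docks on the assembled factors. RefSeq's promoter windows (GRCm38.p6, 250 bases before to 50 after a gene's start) were therefore searched on both strands for AACNGATG, the end of the X box consensus, where N is any base, and for the Y box core CCAAT. They are printed for H2-Aa and H2-Eb1, which passed, and for the loading gene H2-DMb1, which did not, with every match in capitals.
H2-Aa: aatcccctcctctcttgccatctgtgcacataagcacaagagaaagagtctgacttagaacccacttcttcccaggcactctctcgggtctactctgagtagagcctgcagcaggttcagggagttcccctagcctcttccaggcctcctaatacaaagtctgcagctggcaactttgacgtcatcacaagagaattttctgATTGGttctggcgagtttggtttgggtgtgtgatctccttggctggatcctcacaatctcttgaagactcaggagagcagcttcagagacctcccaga
H2-Eb1: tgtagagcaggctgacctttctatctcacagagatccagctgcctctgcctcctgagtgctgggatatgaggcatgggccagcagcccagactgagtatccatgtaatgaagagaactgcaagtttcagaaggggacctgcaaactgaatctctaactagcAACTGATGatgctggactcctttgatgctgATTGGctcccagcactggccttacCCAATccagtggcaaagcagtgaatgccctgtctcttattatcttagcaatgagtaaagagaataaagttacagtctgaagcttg
H2-DMb1: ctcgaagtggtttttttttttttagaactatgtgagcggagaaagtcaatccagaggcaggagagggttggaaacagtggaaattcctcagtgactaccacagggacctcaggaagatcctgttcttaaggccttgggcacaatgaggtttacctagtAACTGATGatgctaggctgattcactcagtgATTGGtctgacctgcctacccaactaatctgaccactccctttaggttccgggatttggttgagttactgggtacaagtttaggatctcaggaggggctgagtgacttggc
The H2-Aa window is chr17:34287774-34288073 on the minus strand and has a Y box core starting 48 bases before the start. The H2-Eb1 window, chr17:34305617-34305916 on the plus strand, has X box letters starting 89 bases and cores 59 and 35 bases before it. The H2-DMb1 window, chr17:34152941-34153240 on the plus strand, has the X box letters at 92 bases and a core at 61 bases before the start. Windows were found for 14 of the 17 measured class II list members, which include the promoter-binding factors named above. Of these genes 12 held the core and 5 the X box letters in any window, against 37.4% and 2.32% of all 32851 windows. A gene can have several windows, so a count of genes and a share of single windows are unlike measures. By the same count of genes, the core was in 8 of 12 interferon-gamma pathway members and 11 of 20 B-lineage transcription factors with a window. The X box letters were in 0 and 1 of these. The window of Ehd3, which also passed, held neither. A match is a description of letters and not a bound site.

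Most genes of the 2 families of interferon-inducible GTPases were higher, and 1 of them passed. Gm4951, of the immunity-related (IRG) family, read 7.33, 7.56 and 6.72 after CpG against 4.24 and 3.88 after PBS, an 8.84-fold rise (log2 3.14, SE 0.29, adjusted p 0.0039). Its family member Iigp1, a GTPase of parasite-containing vacuoles, read 8.47, 9.13 and 7.51 against 5.97 and 5.42. That is a larger spread between the CpG arrays, and Iigp1 did not pass (log2 2.68, SE 0.39, adjusted p 0.0931), though it did in the trended fit (adjusted p 0.0186). Without CpG replicate 3 its log2 change was 3.11 and it passed (adjusted p 0.0056). Gm12250 was at 8.70, 9.10 and 8.65 against 7.69 and 7.91 and likewise did not pass, though it did in the trended fit (log2 1.02, adjusted p 0.0739 and 0.00771). F830016B08Rik, Igtp and Irgm2 were at 1.37, 0.95 and 0.70 with no overlap between groups, and none of them passed. Of 11 IRG genes measured 10 were higher, 6 without overlap, and the median was 0.70, where 51.0% of all genes were higher and 10.7% were higher without overlap.

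All 10 guanylate-binding protein genes measured were higher (51.0% of all genes), 5 of them without overlap (10.7% of all genes). Their median was 0.67, and none passed. The most precise was Gbp7, at 8.42, 8.73 and 8.19 after CpG against 7.38 and 7.59 after PBS (log2 0.96, SE 0.16, adjusted p 0.12, and 0.0393 in the trended fit). Gbp9 was at 1.09 (SE 0.31), and its array values were 7.01, 7.44 and 6.23 against 5.66 and 5.95. Gbp4 and Gbp5 were at 0.77 and 0.78, and each had a CpG array at or below the higher PBS array. In sequence these GTPases are close relatives, and RMA summaries of near-identical genes can share signal.

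Interferon-gamma acts on promoters through GAS and ISRE elements, the latter bound by IRF factors. The windows of Gbp7 and Igtp are shown because both families carry such letters, with GAS-type matches (TTCNNNGAA), ISRE-type matches (GAAANNGAA) and Y box cores in capitals, each searched on both strands.
Gbp7: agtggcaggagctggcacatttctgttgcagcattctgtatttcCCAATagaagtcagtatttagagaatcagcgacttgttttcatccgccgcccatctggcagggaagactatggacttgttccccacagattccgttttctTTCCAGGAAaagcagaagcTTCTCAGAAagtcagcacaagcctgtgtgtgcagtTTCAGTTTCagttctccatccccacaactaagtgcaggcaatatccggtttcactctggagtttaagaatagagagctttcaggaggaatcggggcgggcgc
Igtp: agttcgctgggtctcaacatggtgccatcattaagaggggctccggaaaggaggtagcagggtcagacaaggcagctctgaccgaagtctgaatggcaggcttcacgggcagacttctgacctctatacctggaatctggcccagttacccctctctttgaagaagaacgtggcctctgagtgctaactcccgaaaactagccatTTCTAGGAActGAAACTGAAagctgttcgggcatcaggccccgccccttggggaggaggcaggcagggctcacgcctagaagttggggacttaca
The Gbp7 window, chr3:142530086-142530385 on the plus strand, holds GAS-type letters 106 and 87 bases before the start, ISRE-type letters at 52 and a Y box core at 206. The Igtp window, chr11:58199306-58199605 on the plus strand, holds GAS-type letters at 45 bases and ISRE-type letters at 34. Of the 21 IRG and GBP genes measured, 11 had a window. Of these genes 5 held GAS-type and 8 ISRE-type letters in any window, against 8.30% and 8.56% of all single windows. Among the 14 class II list members with a window, 2 held GAS-type letters and 0 held ISRE-type letters. Those members include factors that bind class II promoters in most cells. Among 20 B-lineage transcription factors with a window, 4 held GAS-type and 3 held ISRE-type letters.

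**Figure D2:**
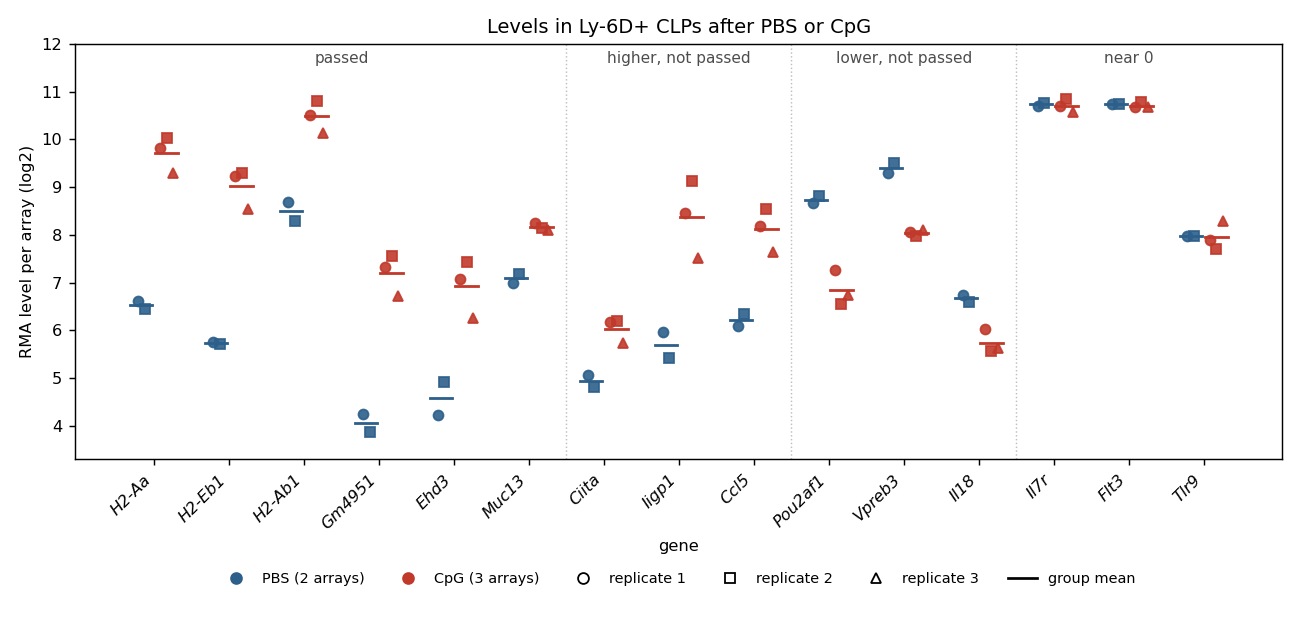
RMA level (y axis, log2) of 15 genes (x axis) on each Ly-6D+ array, 2 after PBS in blue and 3 after CpG in red, with marker shape giving the replicate and a bar giving the group mean. The first 6 genes passed and their groups are apart. For Iigp1 the CpG arrays run from 7.51 to 9.13 and replicate 3 is the lowest, and Il7r, Flt3 and Tlr9 have overlapping groups.

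Markers of monocytes and macrophages were higher on the same arrays. Of 19 markers measured 18 were higher (51.0% of all genes) and 7 of them without overlap (10.7% of all genes), with none passing and a median of 0.30, and the mean level of the list was 5.81 to 6.20 on the CpG arrays and 5.51 to 5.71 on the PBS arrays. Ccr2, the receptor that brings monocytes out of marrow, read 6.70, 6.76 and 6.64 against 5.71 and 5.85 (log2 0.92, SE 0.21, adjusted p 0.283). Fcgr1, Fcgr4 and the factor XIII subunit F13a1 were at 0.91, 0.98 and 0.83. The most abundant marker, lysozyme Lyz2, overlapped at 10.47, 10.73 and 10.50 against 10.13 and 10.56, as did the growth factor receptor Csf1r at 7.27, 6.98 and 6.74 against 6.43 and 6.96. C1qb, a macrophage complement gene, was at 6.90, 7.20 and 5.45 against 4.51 and 5.57. The part of such cells in the class II and GTPase results was not tested. In sorted pools, more cells of a type and more RNA per cell cannot be told apart.

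Conventional dendritic cells, which carry abundant class II, showed no such shift as a list: 6 of 14 markers were higher and 8 lower, the median was -0.02, and the mean level of 6.34 to 6.43 after CpG overlapped the 6.30 to 6.36 after PBS. Batf3, a factor of cross-presenting dendritic cells, was its highest member at 4.55, 4.55 and 4.47 against 3.67 and 3.49 (log2 0.94, adjusted p 0.291). Plasmacytoid dendritic cells, which share Ly-6D and express TLR9, also overlapped, at 8.99 to 9.16 against 8.99 to 9.13, and their surface lectin Siglech was at -0.16 (95% interval -0.44 to 0.12). Both dendritic lists hold genes bright in CLPs themselves, such as Ly6d and Flt3. Their means therefore cannot tell whether dendritic cells were present, which was not tested. Later B cells, which carry class II as well, overlapped at 6.13 to 6.20 against 6.20 to 6.25. The mature B-cell gene Ms4a1 was among the dimmest genes and lower after CpG, at 2.50, 2.41 and 2.75 against 3.20 and 3.10. Neutrophil, natural killer and stromal lists overlapped between groups as well. The T-cell list did not overlap, at 4.81 to 4.87 against 4.64 to 4.74, with 12 of 17 members higher. Its members Cd3e and Cd4 were at 0.64 and 0.63 but dim, Cd3e being brighter than only 34.2% of genes. The erythroid, mast and megakaryocyte list was at 5.05 to 5.29 against 4.97 to 4.99, with 9 of 15 members higher. No marker of these cell types passed.

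Most genes of class I antigen presentation were higher by smaller amounts. Of 18 class I genes measured 15 were higher, 11 without overlap (10.7% of all genes), and none passed, with a median of 0.23. Of the 3 lower members 2 were lower without overlap, the lowest at -0.44. H2-K1, a classical class I heavy chain, read 10.97, 10.96 and 10.71 against 10.32 and 10.44 (log2 0.50, SE 0.11, adjusted p 0.229, and 0.0393 in the trended fit). H2-T10, a non-classical class I gene outside that list, was at 1.12 (SE 0.19), with array values of 6.74, 6.31 and 6.75 against 5.48 and 5.49 and an adjusted p of 0.124. It was the highest of the 19 H2-T, H2-Q and H2-M genes measured, of which 10 were higher and 9 lower, with a median of 0.04 and a lowest value of -0.54. H2-Q4 and H2-M3 were at 0.94 and 0.62, and the class I transactivator Nlrc5 at 0.35. The light chain B2m, one of the brightest genes on the arrays, was at 0.09 (95% interval -0.10 to 0.28), the peptide transporter Tap1 at 0.29, and the immunoproteasome subunits Psmb9 and Psmb8 at 0.24 and 0.05. Many class I genes have near-identical copies, so their probe sets can share signal.

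Lysosomal genes for processing class II antigens were higher in 11 of 12 cases (51.0% of all genes), 8 without overlap (10.7% of all genes). Their median was 0.17 and none passed. Ifi30, the thiol reductase that unfolds antigens, led them at 9.16, 9.15 and 8.94 after CpG against 8.06 and 8.16 after PBS (log2 0.98, SE 0.27, adjusted p 0.459). The protease cathepsin C gene Ctsc was at 0.54 (SE 0.16), and cathepsin S, Ctss, which trims the invariant chain, was at 0.15 (95% interval -0.11 to 0.41).

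Chemokine genes had no common direction. Ccl5, a T-cell and monocyte attractant, read 8.19, 8.55 and 7.64 after CpG against 6.10 and 6.34 after PBS (log2 1.91, SE 0.40, adjusted p 0.218). The interferon-gamma-induced ligands of CXCR3 were less precise. Cxcl9 was at 6.41, 6.60 and 5.45 against 4.24 and 4.87 (log2 1.60, SE 0.56), and Cxcl10 was at 0.74 (SE 0.29). The inflammatory chemokines Ccl3 and Ccl4 were lower without overlap, at -0.89 (SE 0.34) and -0.82 (SE 0.30). Of 20 ligands measured 11 were higher and 9 lower, none passed, and the median was 0.03.

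Upstream of these genes, the interferon-gamma pathway was mixed, with 8 of 15 members higher, 7 lower, none passing and a median of 0.17. The feedback inhibitors Socs1 and Socs3 were at 0.58 (SE 0.15) and 0.79 (SE 0.16) without overlap, and the transcription factor Irf1 read 7.79, 7.79 and 7.69 against 7.34 and 7.06 (log2 0.56, SE 0.13, adjusted p 0.295). The receptor chain Ifngr1 was at -0.25 (95% interval -0.52 to 0.01). Ifng itself was dim, at 3.50, 2.90 and 3.33 against 2.46 and 2.74, and brighter than 23.1% of genes.

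Genes known mainly from type I interferon had no common direction: of 31 measured 15 were higher and 16 lower. Of these 3 and 4 were without overlap (10.7% and 9.76% of all genes), none passed, and the median was -0.0055. Irf7, the amplifier of that response, read 6.42, 6.94 and 6.17 against 6.84 and 6.84 (log2 -0.32, 95% interval -0.76 to 0.12). Mx2, an antiviral GTPase, was at -0.82, Ifit3 at -0.35 and Oasl2 at 0.50, each without overlap. The Toll-like receptor list had 14 of 24 members higher and a median of 0.07. Tlr9, the receptor for CpG DNA, had overlapping groups at 7.89, 7.70 and 8.29 against 7.98 and 7.97 (95% interval of the change -0.47 to 0.45), and Tlr1 was at 0.56 (SE 0.28). NF-kB subunits and targets had a median of 0.0051 over 23 genes, 12 higher and 11 lower, and -0.01 after a further quantile normalisation. Their atypical member Bcl3 was at 0.71 (SE 0.17) with array values of 7.25, 7.53 and 7.22 against 6.88 and 6.37.

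**Figure D3:**
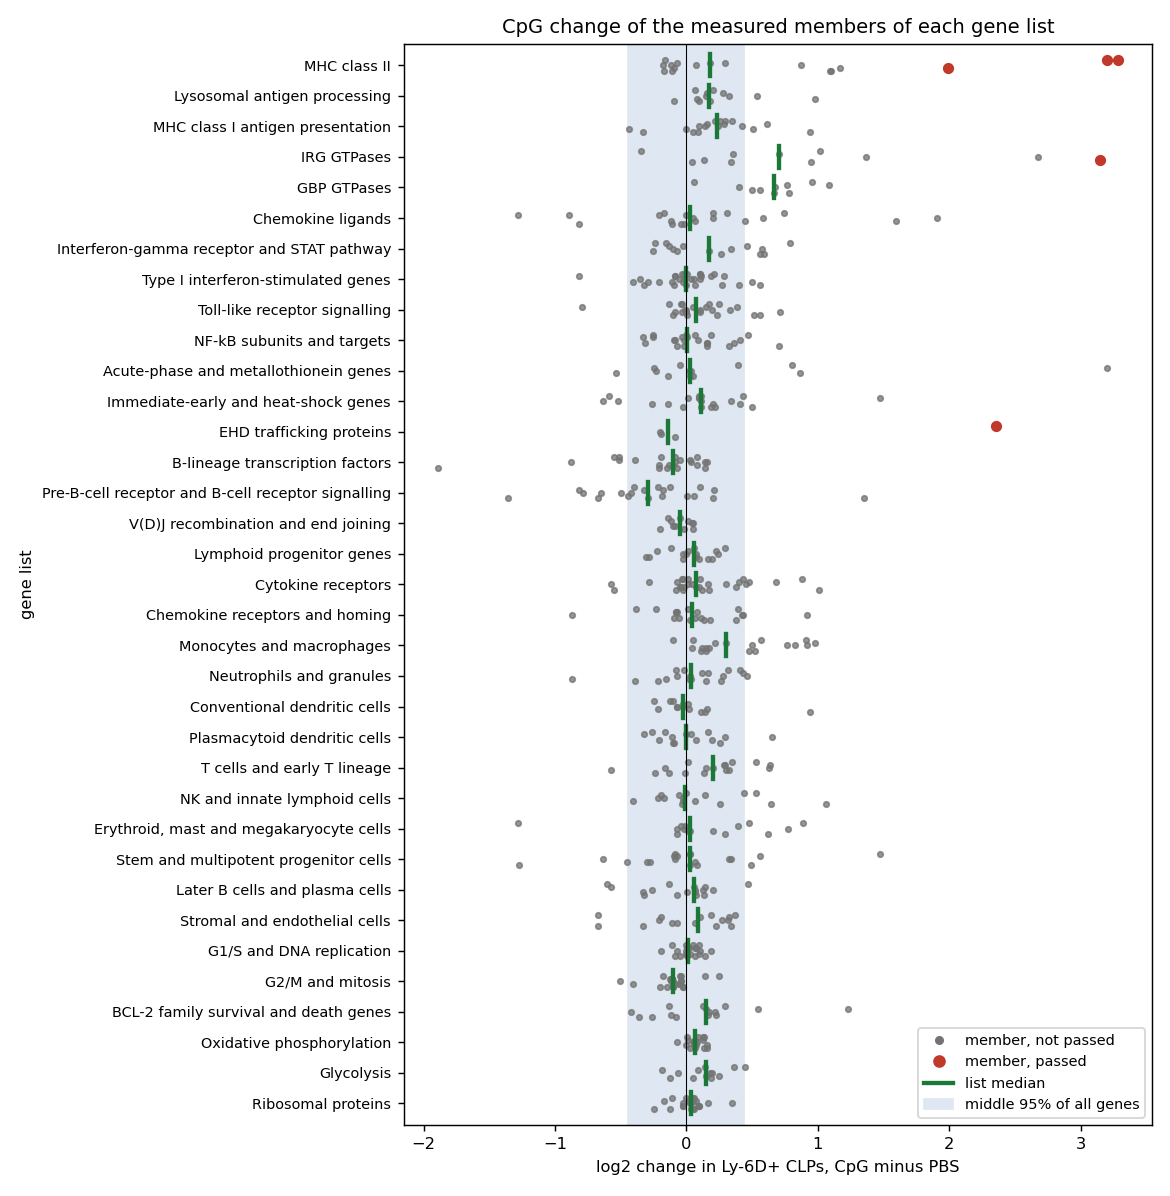
Log2 change in Ly-6D+ CLPs, CpG minus PBS (x axis), of every measured member of 35 gene lists (y axis), with members that passed in red, list medians as green bars and the middle 95% of all genes shaded. The IRG and GBP lists have the highest medians, 0.70 and 0.67, and the 5 red points of the MHC class II, IRG and EHD lists lie to the right of all shading.

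Ehd3 and Muc13 were the passing genes outside these families. Ehd3 codes for an ATPase that shapes recycling endosomes, and it read 7.08, 7.43 and 6.27 after CpG against 4.23 and 4.92 after PBS, a 5.11-fold rise (log2 2.35, SE 0.30, adjusted p 0.0349). The other EHD genes did not go with it: 3 of the 4 members were lower, none beyond -0.20. Muc13, a transmembrane mucin also found on blood progenitors, had the tightest values of the 6 genes, 8.26, 8.14 and 8.10 against 7.0 and 7.18, a 2.11-fold rise (log2 1.08, SE 0.13, adjusted p 0.0318). Ehd3 and Muc13 each passed in only 3 of the 11 fits that left out 1 array. Without PBS replicate 1 their adjusted p was 0.242 for both, and their log2 changes were 2.01 and 0.98.

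With predicted and numbered symbols passed over, the next smallest p-values among higher genes belonged to Iigp1, Gbp7 and H2-T10, given above, and to Lag3, Olfr679, Gcnt2 and Adra2c, none of which passed. Lag3, an inhibitory receptor that itself binds class II, read 6.94, 6.91 and 6.64 against 6.18 and 5.86 (log2 0.81, SE 0.13, adjusted p 0.12). Gcnt2, a glycosyltransferase, was at 0.80 (SE 0.14), and the alpha-2C adrenergic receptor gene Adra2c and the olfactory receptor gene Olfr679 were dimmer than the median gene. S100a4, a calcium-binding protein of motile cells, did not pass but did so in the trended fit, at 9.97, 9.85 and 10.02 against 9.25 and 9.43 (log2 0.61, adjusted p 0.151 and 0.0245). Saa3, an acute-phase gene, equalled H2-Aa in size with a log2 change of 3.20, but its arrays read 8.73, 9.05 and 5.76 against 5.13 and 4.15, and with an SE of 0.90 its adjusted p was 0.459.

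Of 29 cytokine receptors 18 were higher, 9 without overlap, and 11 lower, 3 without overlap, where 51.0% of all genes were higher and 10.7% and 9.76% did not overlap. None passed. The highest were receptors of the interleukin-1 family: Il18r1 read 9.79, 10.05 and 9.31 against 8.70 and 8.71 (log2 1.01, SE 0.21, adjusted p 0.202), and Il1r1 read 8.72, 8.79 and 8.40 against 7.72 and 7.79 (log2 0.88, SE 0.17, adjusted p 0.184). The cytokine Il18 went the other way, at 6.02, 5.57 and 5.64 against 6.75 and 6.60. Its log2 change of -0.94 (SE 0.14) did not pass (adjusted p 0.0931), though it did in the trended fit (0.0363).

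Most members of the B-lineage lists were lower, and none passed. Pou2af1, the B-cell coactivator OBF-1, read 7.26, 6.55 and 6.74 after CpG against 8.67 and 8.81 after PBS. The groups did not overlap, but it did not pass (log2 -1.89, SE 0.33, adjusted p 0.12, and 0.0524 in the trended fit). Vpreb3, which helps to assemble the pre-B-cell receptor, read 8.07, 7.97 and 8.11 against 9.30 and 9.50 (log2 -1.35, SE 0.21, adjusted p 0.117) and passed in the trended fit (adjusted p 0.0359). The surrogate light chain gene Igll1 was at -0.78 (SE 0.23), with arrays of 9.88, 9.51 and 10.17 against 10.60 and 10.68. Of 21 genes of the pre-B-cell receptor and its signalling measured, 15 were lower, 11 without overlap, and 6 higher, with a median of -0.29, where 9.76% of all genes were lower without overlap.

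The receptor's signalling chains Cd79a and Cd79b were at -0.50 and -0.40, and the kinases Blk and Syk at -0.65 and -0.42, all without overlap and none passing. Dok3, an adaptor that dampens receptor signalling, read 5.67, 5.82 and 5.91 against 6.63 and 6.32 (log2 -0.67, SE 0.12, adjusted p 0.151). Rasgrp3, an activator of Ras, was the highest of the 6 higher members of the list, at 7.40, 7.66 and 6.50 against 5.64 and 6.02 (log2 1.35, SE 0.28, adjusted p 0.218). Of those 6 members 2 were higher without overlap (10.7% of all genes). Among 23 B-lineage transcription factors 16 were lower (49.0% of all genes), 9 without overlap (9.76% of all genes), with a median of -0.10 and none passing. The specification factor Ebf1 read 8.85, 8.43 and 8.62 against 9.14 and 9.15 (log2 -0.51, SE 0.19), Foxo1 was at -0.51 (SE 0.15), the commitment factor Pax5 at -0.39 (SE 0.19) and Lef1 at -0.88 (SE 0.30).

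Of the other genes with the smallest p-values among the lower ones, Afap1l1, Angpt1 and Pgr did not pass but did so in the trended fit. Angpt1, the ligand of the receptor TIE2, read 5.66, 5.89 and 6.20 against 7.06 and 7.33 (log2 -1.28, SE 0.21, adjusted p 0.12 and 0.0363). Afap1l1, an actin-associated protein, was at -0.69 (SE 0.10), and the progesterone receptor gene Pgr was at -1.64 (SE 0.26) but dim, at 3.37, 3.0 and 3.59 against 4.74 and 5.17. Sestd1 and Fnbp1l were at -0.70 and -0.81, and H4c14, Akap6, Fam169a, Cryga and Defa-ps12 were between -1.15 and -0.56 with levels below that of the median gene. Gfra2, a receptor for neurturin, and Eya2, a transcriptional coactivator, were named after their values were seen: they were at -1.52 (SE 0.28) and -1.17 (SE 0.28), without overlap, and did not pass.

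Il7r, Flt3, Ly6d, Dntt and Rag2, genes of the progenitor state, were measured precisely and close to 0. Not all such genes were alike, as Ebf1, given above, and Cd93, given below, were lower without overlap. Il7r, whose ligand sustains B-cell progenitors, read 10.70, 10.85 and 10.58 after CpG against 10.71 and 10.76 after PBS, and the 95% interval of its change was -0.34 to 0.28. Flt3, a cytokine receptor of early progenitors, had an interval of -0.28 to 0.23, Ly6d of -0.40 to 0.39, Dntt of -0.17 to 0.28 and the recombinase gene Rag2 of -0.40 to 0.12. Of 11 genes of V(D)J recombination and end joining 7 were lower and none was beyond -0.20. The lymphoid progenitor list had 10 of 17 members higher and a median of 0.06, and its member Cd93 read 9.12, 9.14 and 9.05 against 9.32 and 9.33 (log2 -0.22). Cd34, a marker of earlier progenitors, read 10.35, 10.42 and 10.27 against 9.92 and 10.10 (log2 0.34, SE 0.10, adjusted p 0.524).

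Proliferation and metabolism genes moved by small amounts. Of 26 G2/M genes 24 were lower (49.0% of all genes), 9 of them without overlap (9.76% of all genes). Yet the median was -0.10 and all 26 intervals lay within 2-fold. The 2 largest were no mitotic genes: the cell-cycle inhibitor Cdkn1a at 9.02, 9.01 and 9.59 against 9.69 and 9.72 (log2 -0.50), and the G1 cyclin Ccnd3 at -0.41. Ccnd2, another G1 cyclin, was higher at 0.25. G1/S genes had a median of 0.01, with 15 of 22 higher, and a further quantile normalisation turned this to -0.01, with 10 higher. Oxidative phosphorylation genes were higher in 18 of 19 cases with a median of 0.07 (14 and 0.03 after that step), and ribosomal protein genes in 16 of 24 with a median of 0.04. None of these genes passed.

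The same contrast in Ly-6D- CLPs, with its own 3 CpG and 3 PBS arrays, showed where the change was shared. H2-Aa was at 2.42 there, H2-Eb1 at 2.79, H2-Ab1 at 1.82 and Gm4951 at 2.53, and the difference between populations did not pass for any of them. For H2-Aa the difference was 0.78 (95% interval 0.15 to 1.40, adjusted p 0.723), the interval for H2-Ab1 was -0.41 to 0.76, and that for Gm4951 was -0.26 to 1.48. Ehd3 was at 1.06 in Ly-6D- CLPs, a difference of 1.29 (95% interval 0.41 to 2.17, adjusted p 0.636). No gene passed the test of the difference by limma: 0 of 22180, with 1413 at an unadjusted p below 0.05 (6.37%), a smallest adjusted p of 0.231 and 0 genes in the trended fit.

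The genes below are therefore described without a call, and Dok3 and Gcnt2 had the smallest p for that difference. Dok3 was lower after CpG in Ly-6D+ CLPs and higher in Ly-6D- CLPs (-0.67 against 0.61, difference -1.28, 95% interval -1.64 to -0.92, adjusted p 0.231). Gcnt2 was the reverse, at 0.80 against -0.48 (difference 1.29, 95% interval 0.88 to 1.70, adjusted p 0.355). The next 7 genes in order had an adjusted p of 0.375, the first being Cd6, a receptor of T cells, at 0.37 against -0.66. Further down the order were genes described above. Il1r1 and Rasgrp3 were at 0.88 and 1.35 in Ly-6D+ CLPs and at -0.26 and -0.27 in Ly-6D- CLPs (adjusted p 0.488 and 0.555). The progenitor genes Il7r and Rag2, close to 0 in Ly-6D+ CLPs, were at -0.81 and -0.75 in Ly-6D- CLPs (adjusted p 0.583 and 0.622). Tlr9 was at 0.87 in Ly-6D- CLPs (adjusted p 0.658), and Ifi30 at 2.23 against 0.98 (adjusted p 0.622). With intervals about this wide, a p above the threshold does not show that the populations responded alike.

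**Figure D4:**
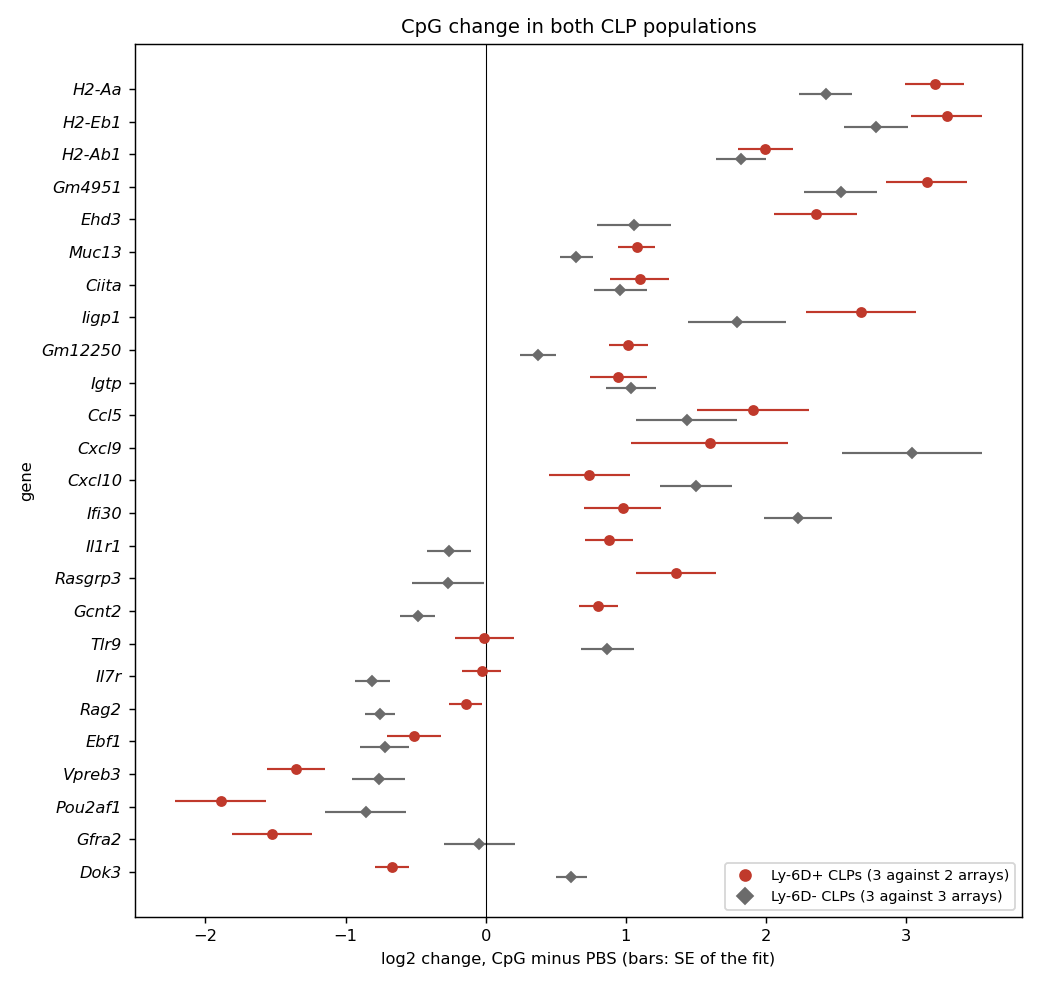
Log2 change, CpG minus PBS (x axis), of 25 genes (y axis) in Ly-6D+ CLPs (red circles, 3 against 2 arrays) and Ly-6D- CLPs (grey diamonds, 3 against 3 arrays), with bars giving the SE of the fit. The class II genes and Gm4951 are far above 0 in both populations, while Dok3 lies at -0.67 and 0.61, and no difference passed the test.

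CpG replicate 3 set the size of several values. Without it 16 genes passed in place of 6, H2-Aa was at 3.41, H2-Eb1 at 3.53 and Gm4951 at 3.39, and Igtp, Gm12250 and F830016B08Rik passed as well (adjusted p 0.0416 for each). Its monocyte marker mean, 5.81, was also the lowest of the CpG arrays, and its mean over IRG genes, 6.47, was lower than the 6.82 and 7.06 of the other CpG arrays and above the 5.93 and 5.74 of the PBS arrays. The order of the CpG arrays was thus the same in both lists, with replicate 2 highest. That order was not particular to these lists, though some other lists had another. It also held for V(D)J recombination, at 8.265, 8.313 and 8.149, and for ribosomal proteins, at 10.139, 10.182 and 10.074. Whether the monocyte and IRG lists are linked was not tested. The same array was not low throughout: it was the lowest of the CpG arrays for 8 of the 28 genes at 2-fold or more lower, and replicate 2 for 16.

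**Figure D5:**
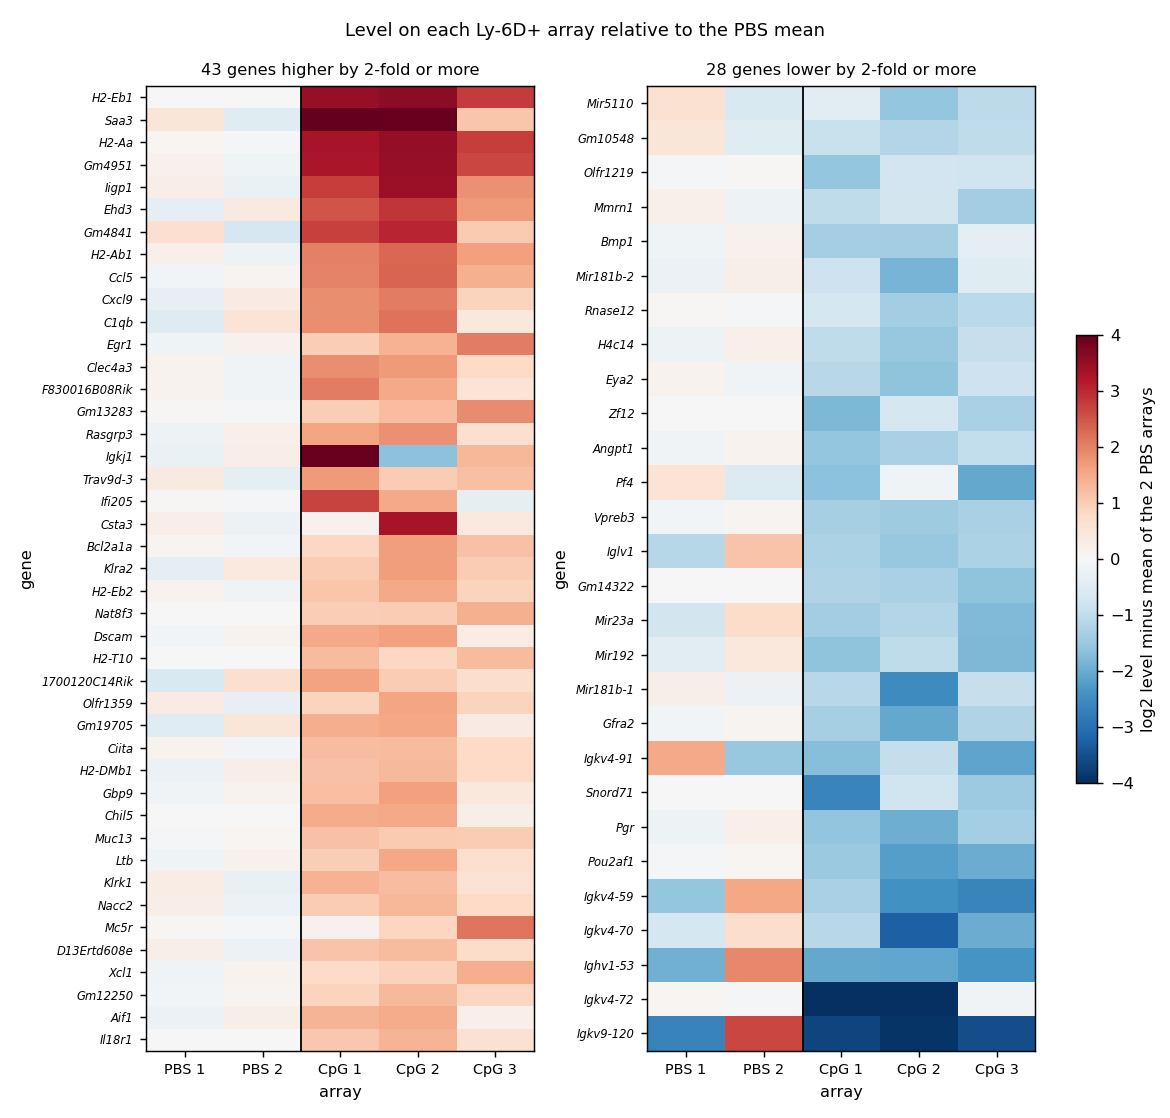
Level of the 43 genes higher (left) and 28 genes lower (right) by 2-fold or more on each Ly-6D+ array (x axis) relative to the mean of the PBS arrays, as colour on a log2 scale that is clipped at the ends shown. The left panel is paler for CpG 3, the lowest CpG array for 32 of its genes, and immunoglobulin segments at the foot of the right panel differ between the PBS arrays.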

How the data were processed

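The deposited table holds log2 values. Per the submitters' processing notes the authors used Partek and RMA, with no version or setting given in these sources. RMA subtracts background, makes the arrays' quantiles alike and combines probes by median polish, which makes array distributions nearly equal and can shrink changes of dim probes. Array number limits the precision. Of 41345 probe sets, 23521 had exactly 1 symbol in the platform annotation, 1814 had several and 17824 in all had no single symbol. Where a gene had several probe sets (1082 of 22180 genes), the brightest over the 11 arrays stood for it, so a gene with several can hide disagreement between them. Some list members, Cd74, Rag1 and Ly6a among them, had no probe set of their own and were not analysed here.

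limma 3.58.1 in R 4.3.3 fitted 1 mean for each of the 4 groups (lmFit and eBayes, 7 residual and 3.48 prior degrees of freedom), a fit tested on simulated data. The trended fit is the same with eBayes trend and robust set. Python 3.11.15, pandas 2.3.3 and matplotlib 3.10.9 did the rest. Named genes were those that passed in either fit, the 12 smallest p-values in each direction (predicted and numbered symbols passed over), up to 4 members of each of 35 lists with the smallest p, and a short set of progenitor and interferon genes. Other list members were named to complete a family or a role, and C1qb, Gfra2, Eya2, Clec4a3, Klra2, Ltb, Cd6 and the immunoglobulin and microRNA genes were chosen after their values were seen. The comparison, members and lists were chosen with earlier results of these data known. No overlap means that every CpG array was above, or every one below, both PBS arrays. Alternatives changed the threshold, the variance model, the scaling, the dim-probe filter, the choice of probe set, the replicate number as a block and the arrays used.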

Additional observations from a re-analysis of the deposited data

Results flagged for a closer look

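Probe sets without a single gene symbol were tested apart from the comparison above, and 3 of 17824 (0.0168%) passed in Ly-6D+ CLPs. The platform annotation used here names no gene for them. Probe set 17467486 read 4.10, 4.04 and 3.78 after CpG against 8.67 and 8.29 after PBS, a log2 change of -4.51 (adjusted p 0.00575), larger than that of any named gene. In Ly-6D- CLPs it was at 0.03 and dim in both groups, and the difference between populations had an adjusted p of 0.076. Probe set 17284457 read 3.43, 3.79 and 3.63 against 6.22 and 6.44, a log2 change of -2.72 (adjusted p 0.00575), and was also dim on all Ly-6D- arrays. Probe set 17350982 was bright and higher, at 10.93, 11.03 and 10.17 against 8.13 and 8.13, a log2 change of 2.58 (adjusted p 0.0183), and was at 1.87 in Ly-6D- CLPs.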

How the results depend on the processing

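The count of 6 genes stayed within 1.5 times under 9 planned settings, among them a 1.5-fold minimum, either other scaling, array weights and both dim-probe filters. It was 10 at an adjusted p below 0.10, 18 in the trended fit, and 0 with the Ly-6D+ arrays alone (limma, 1338 genes at an unadjusted p below 0.05), where the smallest adjusted p of the 6 genes was 0.226. Leaving out 1 array gave 4 to 16 genes, with 16 without Ly-6D+ CpG replicate 3, 15 without Ly-6D+ PBS replicate 2 and 11 without Ly-6D- CpG replicate 3. Leaving out the arrays numbered 3, a setting added after seeing the data, gave 16. The same test on the probe sets without a single symbol, also added then, gave 3. The count for the difference between populations was 0 to 1 when 1 array was left out, the 1 coming without Ly-6D+ PBS replicate 1. With the replicate number as a fixed block 11 genes passed, 9 higher and 2 lower, and with it as a random block 6. Over all 11 arrays the 15 same-numbered pairs had correlations of their deviations between -0.03 and 0.18, 2 of them over 0.1, and the 2 pairs within Ly-6D+ CLPs had -0.03 and 0.07. The labels do not say whether samples of 1 number, or the 2 populations, come from the same mice, so the number was not taken as a pairing. Changes near 0 or of uneven arrays turned sign when arrays were left out 1 at a time: Il7r ran from -0.0997 to 0.0366, Tlr9 from -0.1754 to 0.1207, Ly6d from -0.0194 to 0.0095 and the joining segment Igkj1 from -0.1633 to 2.7858. Il7r was also at 0.0366 without the arrays numbered 3, and Tlr9 at 0.0032 with the random block. The causes were not tested. With 2 and 3 arrays a group, the median SE of a log2 change was 0.15, and dim probes carry little information.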

Other observations

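Immunoglobulin segments took 7 of the 28 places at 2-fold or more lower, and in most of them the PBS arrays were far apart. Of 13 kappa variable segments measured 8 were lower and 5 higher, 5 of the 8 by 2-fold or more, and none passed, with a median of -0.07. The lowest of them read 2.09, 1.85 and 2.23 after CpG against 3.11 and 8.44 after PBS, so its log2 change of -3.72 (SE 1.09, adjusted p 0.503) rests on PBS replicate 2. Ighv1-53, a heavy chain segment, was likewise highest in PBS replicate 2, at 8.74 against 4.91 in PBS replicate 1. Igkv4-72 was high on both PBS arrays, 8.30 and 8.15, and on CpG replicate 3, 8.09, but not on the other CpG arrays, 3.46 and 3.28. Igkj1, a kappa joining segment, was higher on average, at 8.72, 2.82 and 5.78 against 4.19 and 4.74. These families were chosen after their values were seen.

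MicroRNA genes gave 5 of the genes at 2-fold or more lower and none as far higher. Over 483 microRNA genes 268 were lower and 215 higher, and none passed by limma, with 22 lower and 14 higher at an unadjusted p below 0.05, where 3.38% and 3.13% of all genes were. Mir181b-1, whose product is known from lymphocyte development, read 5.46, 4.03 and 5.62 against 6.79 and 6.32 (log2 -1.52, SE 0.92), and its second genomic copy Mir181b-2 read 3.52, 2.47 and 3.85 against 4.12 and 4.56 (log2 -1.06, SE 0.43). Mir192 and Mir23a were at -1.47 (SE 0.37) and -1.44 (SE 0.39). Probes of this array report the primary or precursor transcript as well as other RNA of the locus, so these are not levels of mature microRNA. Olfactory receptor genes are not expected in marrow, and of 1105 measured only 30 were brighter than the median gene. Of the 1105, 595 were lower and 510 higher. At an unadjusted p below 0.05 by limma 64 were lower and 24 higher, where 3.38% and 3.13% of all genes were. Without overlap 134 were lower and 78 higher, where 9.76% and 10.7% of all genes were. This dim set leaned towards lower values, so it is not a neutral background.

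Receptors of natural killer cells had no common direction. The NK and innate lymphoid list had 8 members higher and 8 lower with a median of -0.01, and of 7 Ly49 receptors 4 were higher and 3 lower with a median of 0.02. The highest of each were as follows. Klrk1, the activating receptor NKG2D, read 7.36, 7.22 and 6.55 against 6.28 and 5.68 (log2 1.06, SE 0.39), and Klra2, an inhibitory Ly49 receptor, was at 1.23 (SE 0.24) but below the median gene's level. Clec4a3, a lectin of myeloid cells, was at 6.25, 6.09 and 5.19 against 4.55 and 4.25 (log2 1.44, SE 0.28), and Ltb, a lymphotoxin chain, at 1.07 (SE 0.29). S1pr1, which guides cells out of marrow, was lower at 3.66, 3.94 and 3.88 against 4.75 and 4.65 (log2 -0.87, SE 0.15). Mpo, a granule enzyme of early myeloid cells, was at 9.03, 9.33 and 9.08 against 9.74 and 10.30 (log2 -0.87, SE 0.20). It was the lowest of the neutrophil and granule list, of which 12 of 19 were higher with a median of 0.04. None of these genes passed.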
